A study of Mus musculus with 3 samples.

Results

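Closely aligned Tbr2 and Neurog2 sites are places in the genome where a narrow Tbr2 peak and a Neurog2 peak are centred on nearly the same base. They were chosen by measured values from the deposited peak lists: position, width and number of sequence tags per peak. On chromosomes 1 to 19, each Neurog2 peak was paired with the overlapping Tbr2 peak of most tags, and a pair was kept when the midpoints lay 50 bp or less apart, the Tbr2 peak was under 1200 bp wide and the Neurog2 peak had fewer tags than the Tbr2 peak. Of 2571 autosomal Neurog2 peaks, 2122 overlapped a Tbr2 peak by at least 1 bp, a share of 82.5%. The midpoint limit was met by 767 of these pairs, the width limit also by 733, and the tag limit also by 591, which are the closely aligned sites. They make up 23.0% of autosomal Neurog2 peaks (95% Wilson interval 21.4 to 24.7) and 4.13% of the 14321 autosomal Tbr2 peaks (3.81 to 4.47). Each of the 591 sites has its own Tbr2 peak, and at no site did the Neurog2 peak overlap more than 1 Tbr2 peak.

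The peaks come from chromatin immunoprecipitation and sequencing (ChIP-seq) of wild-type C57BL/6 mouse cerebral cortex at E14.5, a stage of cortical neurogenesis. There was 1 library for Tbr2 (a Chemicon antibody), 1 for Neurog2 (a non-commercial antibody) and 1 of input chromatin. Peak lists were deposited for the 2 ChIP libraries only. All tissue was crosslinked in series before shearing: 45 min in 2 mM disuccinimidyl glutarate, followed by 10 min in 1% formaldehyde. No library has a replicate, so no value below has a replicate error, and the intervals cover counting error over peaks only. Whole cortex was used, so binding in few cells and weak binding in many cells cannot be told apart, and neither can binding of both factors in the same cells and binding in different cells. The number of reads per library is not given in the sources used here. All peaks together held 736045 Tbr2 tags and 100430 Neurog2 tags, and the closely aligned sites held 43658 and 19485 of these.

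Tbr2, the protein of the Eomes gene, is a T-box transcription factor. T-box factors bind short DNA elements related to the Brachyury motif through a conserved domain, and in the developing cortex Tbr2 marks intermediate progenitors, the cells that divide away from the ventricle and produce excitatory neurons. Neurog2 is a proneural basic helix-loop-helix factor that binds E-box elements as a dimer with an E protein and drives cortical progenitors towards the excitatory neuron fate. Neurog2 is expressed in radial glia entering neurogenesis and in intermediate progenitors, so the domains of both factors overlap in time and place. A peak is a stretch of genome where tags pile up over background, and its midpoint is an approximate position of binding rather than a mapped base. A genome sequence and gene annotation of the build of the files, mm9, were not used here, so sites are given by position, without gene names and without T-box or E-box sequences.

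The sites named first have many tags of both factors, because the order used here selects for that. Sites were ordered by the sum of their ranks in Tbr2 tags and in Neurog2 tags among the 591, and numbered in that order. Site 1, at chr2:109800045-109801109, had 352 Tbr2 tags, the most of any closely aligned site, and 106 Neurog2 tags in a Neurog2 peak at 109800352 to 109800881. Its Tbr2 fold change was 95.9 and its Neurog2 fold change 26.4, where fold change is the authors' enrichment of a peak over its background. The Tbr2 p-value there was listed as 1e-310, a round value that may be a reporting limit, and the Neurog2 p-value was 9.10e-65. This site was high in both lists, at place 7 by tags among autosomal Tbr2 peaks and joint place 34 among autosomal Neurog2 peaks.

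Site 2, at chr6:143943318-143944251, had 191 Tbr2 and 102 Neurog2 tags, with fold changes of 53.8 and 26.8. Site 3, at chr11:43816231-43817291, had 275 and 76 tags, midpoints 1.5 bp apart and the highest Tbr2 fold change of the closely aligned sites, 99.6, beside a Neurog2 fold change of 22.1. Site 4, at chr17:88144372-88145260, had 180 Tbr2 and 106 Neurog2 tags and fold changes of 43.5 and 22.2. The Tbr2 peaks of these 3 sites were 889 to 1061 bp wide, and their midpoints were at most 8.5 bp from those of Neurog2. Site 5, at chr1:187262540-187263573, had 257 Tbr2 and 76 Neurog2 tags and lay near the limit of the rule, with midpoints 49.5 bp apart.

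Site 6, at chr17:27451589-27452761, had 244 and 76 tags, but lower fold changes than the other sites named so far, 29.8 for Tbr2 and 10.9 for Neurog2. Site 7, at chr1:91446380-91447460, had 318 Tbr2 tags against 66 Neurog2 tags. Site 8, at chr13:93506451-93507539, was more balanced, with 137 Tbr2 tags and 113 Neurog2 tags, the most Neurog2 tags of any closely aligned site. At site 9, chr3:84056393-84057503, the midpoints were identical, with 345 bp of Tbr2 peak on either side of the Neurog2 peak and 157 and 70 tags. Site 10, at chr4:10901527-10902392, had 190 and 62 tags.

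**Figure D1:**
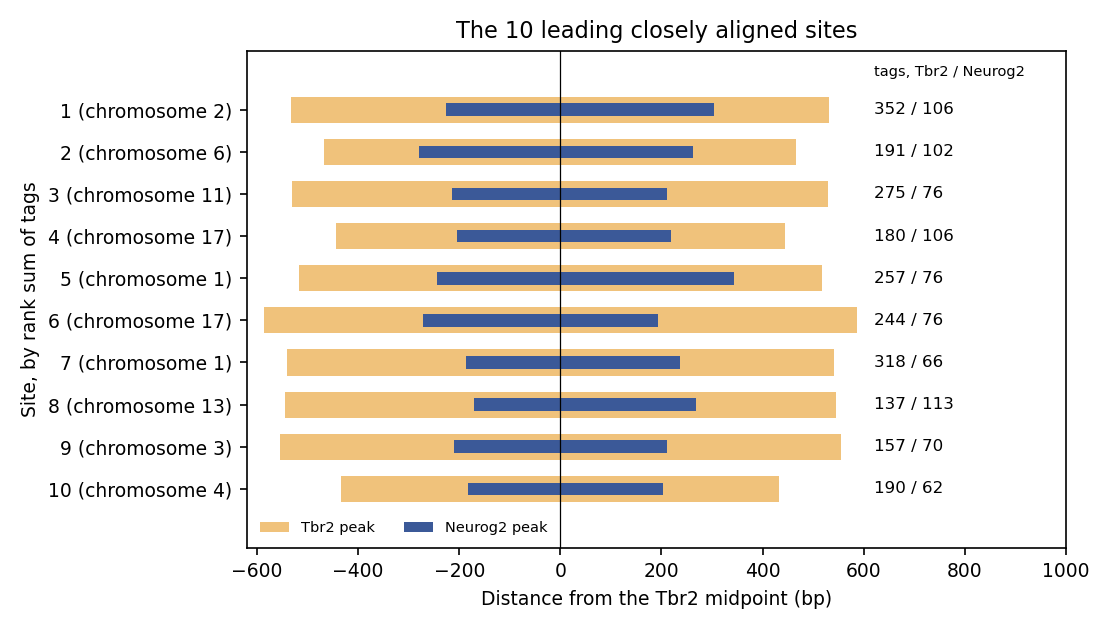
The 10 closely aligned sites with the lowest rank sum of tags, drawn as the Tbr2 peak (wide bar) and the Neurog2 peak (narrow bar) along the distance in bp from the Tbr2 midpoint, with the tags of each peak at the right. Every Neurog2 peak lies inside its Tbr2 peak, with 173 to 394 bp of Tbr2 peak beyond it on the right and 187 to 373 bp on the left.

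The 10 sites lay on 8 chromosomes. Their Tbr2 fold changes ran from 19.3 to 99.6 with a median of 44.8, and their Neurog2 fold changes from 10.9 to 26.8 with a median of 17.9. At none of the 10 was the Neurog2 fold change the higher one, and at 3 of the 10 (sites 4, 8 and 9) the Neurog2 peak had more tags per 100 bp than the Tbr2 peak. A further Tbr2 peak stood within 10 kb of 6 of the 10, against 35.0% of all 591 sites and 38.5% of all overlapping pairs. A further Neurog2 peak stood within 10 kb of 2, sites 8 and 10, against 13.5% and 22.6%. With only 10 sites, no difference from these shares can be read. Tbr2 false discovery rates were listed as 0 at 7 of the 10. Neurog2 rates ran from 0.0054 at site 6 to 0.0455 at site 2. They were above 0.01 at sites 1, 2, 3, 4 and 8 and below it at the others.

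Over all 591 sites, the median distance between midpoints was 23 bp, with 50% of the sites between 11 and 35 bp. The Neurog2 midpoint lay to the left of the Tbr2 midpoint, towards lower coordinates, at 302 sites and to the right at 286, and the midpoints were the same at 3. The numbers fell with distance, though not steadily. Midpoints lay 0 to 10 bp apart at 141 sites, over 10 and up to 20 bp at 117, up to 30 at 130, up to 40 at 104 and up to 50 bp at 99. No gap separated the sites from pairs beyond the limit. Among pairs with the same limits on width and tags, 235 lay over 50 and up to 75 bp apart, 174 up to 100 bp and 233 up to 150 bp, of 865 offset pairs in all.

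**Figure D2:**
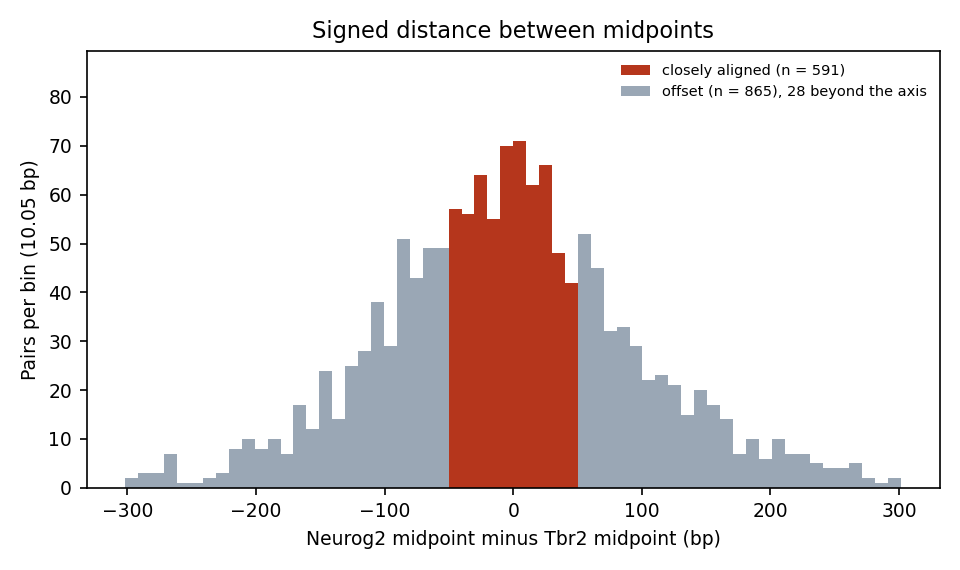
Neurog2 midpoint minus Tbr2 midpoint in bp for the 591 closely aligned sites and the 865 offset pairs that met the same limits on width and tags, stacked in bins of about 10 bp. The distribution has its highest bins near 0 and passes the limit of 50 bp without a break.

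Every closely aligned Neurog2 peak lay wholly within its Tbr2 peak, 591 of 591, against 98.2% of all overlapping pairs. The rule makes this likely, because a narrow peak centred near the middle of a wide one is enclosed by it. Tbr2 peaks of the sites were 267 to 1197 bp wide, with a median of 820 bp, and Neurog2 peaks 46 to 604 bp, with a median of 266 bp. The Neurog2 peak covered a median of 34.0% of the Tbr2 width by the ratio of widths (0.340), and a median of 267 bp of Tbr2 peak remained on each side.

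How far apart the midpoints lay had little relation to the strength of either peak within the 50 bp. Median Tbr2 tags were 59 for sites up to 10 bp apart and 62 for those over 40 bp apart, and median Neurog2 tags were 29 and 27. Median Tbr2 fold changes were 14.8 and 14.2, and median Neurog2 fold changes 11.9 and 12.5. Spearman's rho between the distance and the Tbr2 fold change was 0.01, and between the distance and the ratio of Neurog2 to Tbr2 tags -0.06 (n = 591 sites of the same 2 libraries). Beyond 200 bp the median Tbr2 fold change of the offset pairs was 11.6 and their median Tbr2 width 1035 bp, against 810 bp for sites up to 10 bp apart. Overlapping peaks can have midpoints that far apart more easily when the Tbr2 peak is wide, so the distance itself bears on this width.

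Most closely aligned sites were of middling strength in the Neurog2 list. The values in this and the next paragraphs come from the contrasts that chose the sites and are a description. Tbr2 tags ran from 17 to 352 with a median of 64 (interquartile range 45 to 87), and Neurog2 tags from 9 to 113 with a median of 28 (21 to 42). Of the 591 sites, 127 (21.5%) had at least 94 Tbr2 tags, the level reached by the strongest 10% of autosomal Tbr2 peaks. Only 36 (6.09%) had at least 63 Neurog2 tags, the same level for the Neurog2 list. Both levels were reached at 26 sites and neither at 454. For all overlapping pairs the shares were 34.9% for Tbr2 and 12.1% for Neurog2. The rule removes wide Tbr2 peaks and pairs rich in Neurog2 tags, so both shares are limited by it.

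Aligned pairs with the tag order the other way round were weaker Tbr2 peaks. The 142 pairs within the midpoint and width limits whose Neurog2 tags were at or above the Tbr2 tags had a median of 35 Tbr2 and 48 Neurog2 tags, and median fold changes of 8.20 and 13.3. The closely aligned sites had median fold changes of 14.8 for Tbr2 and 11.8 for Neurog2. Offset pairs were close to the aligned ones in these values, with medians of 71 Tbr2 and 28 Neurog2 tags and fold changes of 13.6 and 11.8. Tbr2 peaks of the same width limit that overlapped no Neurog2 peak, 11865 in number, had medians of 35 tags, a fold change of 9.16 and a width of 678 bp.

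**Figure D3:**
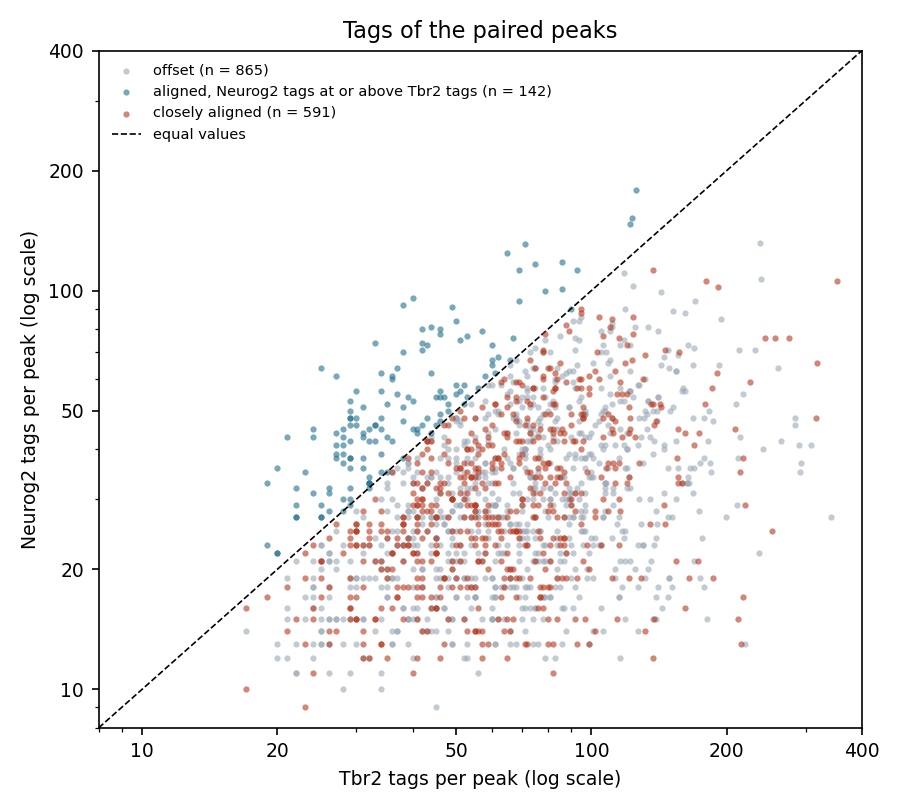
Tags of the Neurog2 peak against tags of the Tbr2 peak, both on log axes, for each closely aligned site, each offset pair and each aligned pair with Neurog2 tags at or above Tbr2 tags. The line of equal tags bounds the closely aligned sites by the rule, and the offset pairs spread over the same range of 17 Tbr2 tags and more.

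The ratio of Neurog2 to Tbr2 tags differed widely between sites, from 0.0605 to 0.987, with a median of 0.491 (interquartile range 0.338 to 0.667). It is not scaled for the depth of the libraries, so its order between sites can be read but not its size. The lowest ratio belonged to site 279, at chr17:62687036-62687899, with 215 Tbr2 tags and 13 Neurog2 tags. This is a strong Tbr2 peak, with a fold change of 69.5, that encloses a Neurog2 peak of 140 bp with a fold change of 12.5. Site 259, at chr9:15617427-15618540, had 212 and 15 tags, and site 238, at chr2:4227692-4228761, had 218 and 17 tags. All 3 were picked out after their ratios were seen.

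Among the 5 sites with the highest Tbr2 fold change were site 3 (99.6), site 1 (95.9) and site 279 (69.5). Site 256, at chr9:22539578-22540428, had a Tbr2 fold change of 71.2 with 162 tags, and only 16 Neurog2 tags with a fold change of 12.5. Site 83, at chr14:98521864-98522861, had a Tbr2 fold change of 66.2 with 214 tags, and 35 Neurog2 tags with a fold change of 17.9. The highest Tbr2 fold changes therefore included sites near the bottom as well as the top of the Neurog2 list, at places from joint 34 to 2459 of 2571 by tags. The 5 sites with most Neurog2 tags were sites 8, 4, 1 and 2, with 102 to 113 tags, and site 35, at chr4:45485631-45486673, with 90 Neurog2 tags against 95 Tbr2 tags and fold changes of 21.4 and 15.3.

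Fold changes followed the order that the rule sets for tags at 379 of the 591 sites. The Neurog2 fold change exceeded the Tbr2 fold change at the other 212, 35.9%, against 41.3% of all overlapping pairs. Of the aligned narrow pairs with Neurog2 tags at or above Tbr2 tags, 132 of 142, 93.0%, had the higher Neurog2 fold change, so the limit on tags bears on the order of fold changes too. Neurog2 peaks also held more tags per 100 bp than the wider Tbr2 peaks at 509 sites, 86.1%, against 82.4% of all overlapping pairs. Median densities were 11.1 Neurog2 and 7.75 Tbr2 tags per 100 bp. The depth of each library is unknown, and so is the control behind each fold change, so these counts do not show which factor was bound more.

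The order of fold changes was next set out by the strength of the Tbr2 peak. Tbr2 tags and Tbr2 fold change measure the same peak (rho 0.76 over the sites), so the split itself largely fixes the Tbr2 side of what follows. The sites were put in 4 groups of nearly equal size by Tbr2 tags. In the group with fewest, 17 to 45, Neurog2 had the higher fold change at 127 of 158 sites, with medians of 11.9 for Neurog2 and 9.53 for Tbr2. In the next groups, of 46 to 64 and of 65 to 87 Tbr2 tags, it did so at 53 of 142 and 23 of 146 sites. In the group with most Tbr2 tags, 88 to 352, it did so at 9 of 145, with medians of 12.5 and 25.8. The median Neurog2 fold change lay between 11.7 and 12.5 in the 4 groups, while that of Tbr2 ran from 9.53 to 25.8. Many Neurog2 fold changes recur exactly, such as 12.52, 14.31 and 16.1, so their scale is coarse near these medians. The flat Neurog2 medians therefore do not show that Neurog2 enrichment was independent of Tbr2 strength. Median Neurog2 tags were 22, 29, 34 and 44 in the same order.

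The highest Neurog2 fold change, 55.5, was at site 264, at chr11:24999837-25000522, in a Neurog2 peak of only 84 bp with 33 tags. Its 39.3 tags per 100 bp were the highest Neurog2 density of the closely aligned sites, against a median of 11.1. Whether so narrow and dense a peak differs in kind from the others was not tested. The Tbr2 peak around this Neurog2 peak had 61 tags and a fold change of 29.1. Site 390, at chr3:152786367-152787129, followed with a Neurog2 fold change of 33.9 and 23 tags, and site 357, at chr1:12634502-12635296, with 32.2 and 30 tags. These 3 were chosen after their values were seen. None of them was among the 10% of Neurog2 peaks with most tags, and their Tbr2 fold changes were lower, 23.8 at site 390 and 17.9 at site 357.

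**Figure D4:**
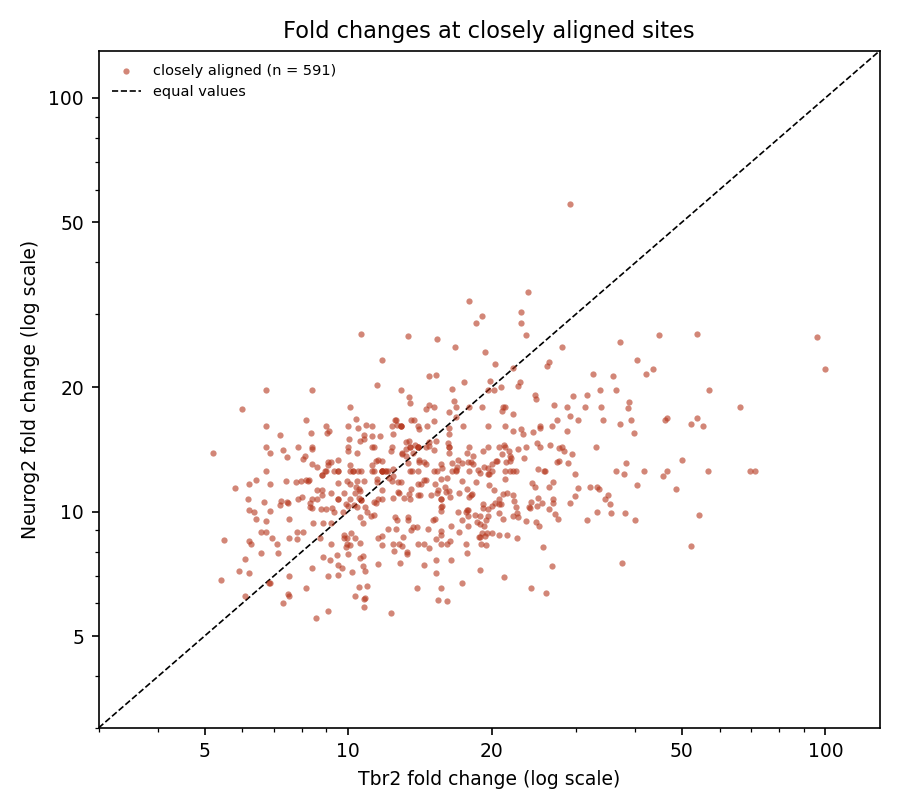
Neurog2 fold change against Tbr2 fold change at the 591 closely aligned sites, both on log axes, with the line of equal values. Points above the line are the 212 sites with the higher Neurog2 fold change, and the highest Neurog2 value is 55.5.

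Across the 591 sites, Tbr2 and Neurog2 tags had a Spearman's rho of 0.48 and a Pearson's r of log10 tags of 0.49. The rule itself bounds Neurog2 tags from above by Tbr2 tags, which adds to this correlation: over the aligned narrow pairs with no limit on the tag order rho was 0.27. For fold changes, whose order the rule limits only through the tags, rho was 0.30 and r of log10 values 0.34. The offset pairs gave nearly the same values, 0.48 for tags and 0.29 for fold changes (n = 865). Within a list, tags went with peak width, at a rho of 0.75 for Tbr2 and 0.95 for Neurog2 over the closely aligned sites. Tbr2 tags also went with Tbr2 fold change (rho 0.76), but Neurog2 tags hardly did with Neurog2 fold change (0.08). The latter value rests on Neurog2 fold changes of which many recur exactly, as given above. These correlations are across sites that share their libraries, and are given as a description.

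The share of aligned pairs differed with the size of the Tbr2 peak, as a description of the rule's own measures. Pairs with the limits on width and tag order were put in 4 groups of nearly equal size by Tbr2 width, and again by Tbr2 tags. Of these pairs, 46.8% (95% interval 41.8 to 52.0) were closely aligned in the group with the narrowest Tbr2 peaks, 267 to 735 bp. The share was 48.6% (43.5 to 53.7) at 736 to 848 bp, the highest of the 4, and 41.9% (36.9 to 47.0) at 849 to 982 bp. In the group with the widest, 983 to 1199 bp, 25% (20.8 to 29.7) were. By Tbr2 tags the share was 45.3% (40.4 to 50.4) in the lowest group and 32.9% (28.2 to 37.9) in the highest. Within each of the 4 tag groups, the median Tbr2 fold change was higher for the closely aligned sites than for the offset pairs, by the most at 48 to 68 Tbr2 tags, 14.0 against 11, and by the least in the highest, 26.8 against 26.6. In all but the lowest tag group the closely aligned sites also had narrower Tbr2 peaks at the median, for example 865 against 951 bp at 69 to 95 Tbr2 tags. In the groups by width the median Tbr2 fold change was higher for the closely aligned sites in 3 of the 4, and lower at 736 to 848 bp, 13.5 against 14.0. In the others the medians were 11.8 against 10.7, 17.4 against 14.6 and 19.3 against 16.1, from the narrower to the wider.

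Closely aligned sites were found on all 19 autosomes. Chromosome 4 held the most, 46, followed by chromosomes 2 and 8 with 43 each, and chromosome 19 the fewest, 9. As a share of overlapping pairs they ranged from 21.9% on chromosome 12 (25 of 114, 95% interval 15.3 to 30.4) to 32.6% on chromosome 3 (31 of 95, 24.0 to 42.6). The share over all autosomes was 27.9% (26.0 to 29.8), and the interval of each of the 19 chromosomes held this value. Per 1000 Tbr2 peaks, the number of closely aligned sites ran from 28.5 on chromosome 19 to 55.1 on chromosome 11.

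The surroundings of the sites were described by the nearest other peak, which the rule did not use directly. The midpoint limit does bear on other Neurog2 peaks inside the same Tbr2 peak, as given below. The nearest other Tbr2 midpoint was a median of 19.3 kb away (interquartile range 5.23 to 62.9). Another Tbr2 peak lay within 10 kb at 207 of 591 sites, 35.0% (31.3 to 39.0), against 38.5% of all overlapping pairs and 39.3% (36.1 to 42.6) of offset pairs. Narrow Tbr2 peaks without Neurog2 had another Tbr2 peak that near in 28.8% of cases (28.0 to 29.6). Differences between these shares were not tested, since peaks are not replicates.

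Other Neurog2 peaks were farther away, with the nearest a median of 143 kb from the site (30.1 to 535). The Neurog2 list is also the shorter, with 2571 autosomal peaks against 14321 for Tbr2. The same median was 149 kb for offset pairs and 115 kb for all overlapping pairs. Within 10 kb there was another Neurog2 peak at 80 sites, 13.5% (11.01 to 16.5), against 22.6% of all overlapping pairs and 20.9% (18.4 to 23.8) of offset pairs. A part of this gap lay in Tbr2 peaks that hold several Neurog2 peaks. At 16 closely aligned sites, 2.71%, the Tbr2 peak held a further paired Neurog2 peak, against 8.32% of offset pairs, and 2 Neurog2 peaks in 1 Tbr2 peak can hardly both lie at its middle. Counting only Neurog2 peaks outside the Tbr2 peak, the share was 10.8% (8.57 to 13.6) of closely aligned sites. It was 14.1% of all overlapping pairs and 14.1% (11.9 to 16.6) of offset pairs. The intervals of closely aligned sites and offset pairs overlap, and the difference was not tested.

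**Figure D5:**
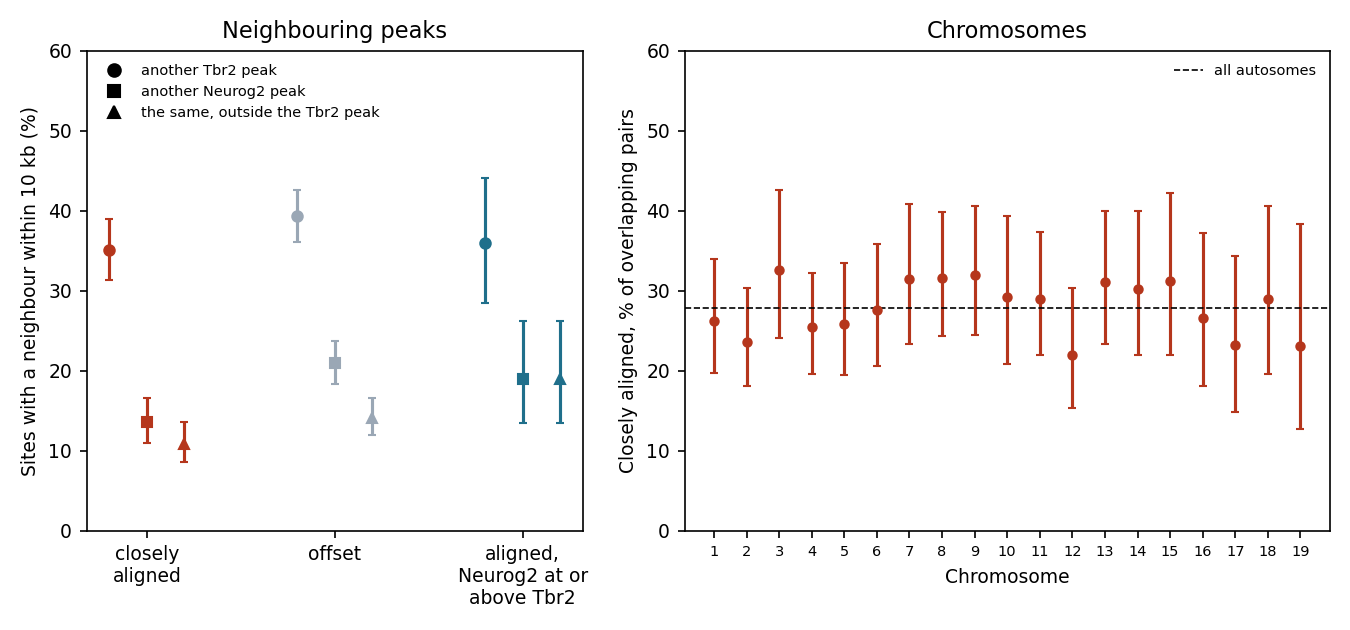
Left, the percentage of sites with another Tbr2 peak, another Neurog2 peak, or another Neurog2 peak outside the Tbr2 peak within 10 kb, for 3 sets of pairs. Right, closely aligned sites as a percentage of overlapping pairs on each chromosome, with the value over all autosomes, 27.9%, as a line. Bars are 95% Wilson intervals. Of the 3 sets, closely aligned sites have the lowest points for other Neurog2 peaks, 13.5%, and for those outside the Tbr2 peak, 10.8%. The rule itself limits the first of these values. Every chromosome's interval holds the line.

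The spacing of closely aligned sites from each other was counted, but was not compared with that of other pairs. Neighbours along a chromosome were within 10 kb of each other in 6 cases, within 50 kb in 29 and within 100 kb in 44. The closest pair was on chromosome 8, where Tbr2 peaks at 92795676 to 92796591 and 92796678 to 92797668 had midpoints 1.04 kb apart. The first had 155 Tbr2 and 38 Neurog2 tags and the second 66 and 14, so the first was the stronger for both factors. On chromosome 7, sites at 139473362 to 139473949 and 139475430 to 139476307 were 2.21 kb apart, with 63 and 54 Tbr2 tags and 36 and 18 Neurog2 tags. On chromosome 10, sites at 60055523 to 60056223 and 60057953 to 60058481 were 2.34 kb apart, and here the order differed between the factors, with 50 and 25 Tbr2 tags but 19 and 21 Neurog2 tags. On chromosome 9, sites at 57856592 to 57857330 and 57860563 to 57861347 were 3.99 kb apart. There the second had 159 Tbr2 tags against 42, while Neurog2 tags were 33 and 29. These neighbours were chosen after their distances were seen.

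At exactly 50 bp lay 5 sites, with a median of 68 Tbr2 and 25 Neurog2 tags and a median Neurog2 fold change of 16.1. At 50.5 bp 7 pairs missed the limit, with medians of 65 and 28 tags and a Neurog2 fold change of 10.7. Over wider margins, the 57 sites over 45 bp apart and the 49 pairs over 50 and up to 55 bp apart had medians of 64 and 65 Tbr2 tags, 27 and 32 Neurog2 tags and Neurog2 fold changes of 12.5 and 11.9. Just inside was the site at chr9:15578892-15579841, with 63 and 17 tags, and just outside the pair at chr17:15225387-15226095, with 61 and 36 tags. The widest Tbr2 peak kept, 1197 bp at chr4:120674743-120675939, had 138 Tbr2 and 15 Neurog2 tags. The narrowest left out by its width alone, 1203 bp at chr13:20208595-20209797, had 132 and 18. The 32 sites with Tbr2 peaks of 1100 bp or more had a median of 122.5 Tbr2 tags, and the 33 pairs left out by width alone 161. At 12 sites Neurog2 was only 1 tag below Tbr2, with medians of 40 and 41 tags, and 8 aligned pairs with equal tags, a median of 36.5, were left out.

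The weakest sites had few tags in both libraries. The fewest Tbr2 tags were 17, for example at site 578, at chr9:51954303-51954722, where 16 Neurog2 tags gave a fold change of 16.1 against 6.73 for Tbr2. The fewest Neurog2 tags, 9, were at site 590, at chr5:19388636-19388907, in a peak of 49 bp, beside 23 Tbr2 tags in a peak of 272 bp with midpoints 0.5 bp apart. Both sites were chosen after their values were seen. False discovery rates as the authors deposited them were at most 0.0219 for Tbr2 and 0.0998 for Neurog2 over the closely aligned sites, with medians of 0.0004 and 0.0076.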

How the data were processed

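Peak lists of 2 ChIP libraries were used, 1 for Tbr2 and 1 for Neurog2. Per the submitters' processing notes, Bowtie 0.12.3, MACS 1.4 and build mm9 were used. Their settings, and which control MACS was given, are not known here. Per peak, the authors deposited as text a fold change (ratio), an FDR, a p-value and a number of tags. The deposited score is 750 for every peak and was not used. The lists end at a p-value of 9.98e-06 for Tbr2 and 8.65e-07 for Neurog2.

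Positions were counted from 1, and width is end minus start as in the files. Pairing, medians, Wilson intervals and correlations were computed with Python 3.11.15, pandas 2.3.3 and scipy 1.17.1. Pairing was tested on simulated peaks. The sites, lists and measures were chosen with earlier results of these data known. Sites named are the 10 with the lowest rank sum of tags, the 5 with most Neurog2 tags, the 5 with the highest Tbr2 fold change and those at the limits; any other is said to be chosen afterwards. No test was run, since each factor has 1 library and its values chose the sites. Planned motif, promoter and gene list counts need mm9 sequence or annotation and were not run.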

Additional observations from a re-analysis of the deposited data

Results flagged for a closer look

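The rule leaves out the sex chromosomes. On the X chromosome, 6 pairs of 43 Neurog2 peaks fell within the same limits on midpoints, width and tags, 14.0% (95% Wilson interval 6.56 to 27.3). The autosomal share, 23.0%, lies inside this interval. These pairs were looked at because no comparison of the report used them. The strongest, at chrX:100758751-100759733, had 207 Tbr2 and 30 Neurog2 tags and fold changes of 64.47 and 14.51. The other 5 had 22 to 49 Tbr2 tags and 9 to 32 Neurog2 tags. On the Y chromosome 0 of 23 Neurog2 peaks fell within the limits.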

How the results depend on the processing

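Over 9 results there were 79 values under alternatives. Pairing by the nearest midpoint and an overlap of 90% gave the identical sites, so 18 of the 79 could not move. Of the other 61, 39 moved by less than their 95% interval, or 1.5 times for the number of sites, and no correlation changed sign. The number of closely aligned sites, 591, was 325 with a midpoint limit of 25 bp, 1000 with 100 bp and 350 with only peaks at an FDR of 1% or less. Their share of autosomal Neurog2 peaks, 23.0%, was 12.6% at 25 bp, 38.9% at 100 bp and 28.5% with no limit on the tag order. The correlation of tags, 0.48, was 0.27 with no limit on the tag order, 0.59 at an FDR of 1% or less and 0.30 with fold changes. The FDR limit left out some sites with many tags, among them sites 1 and 2, whose Neurog2 rates were 0.0385 and 0.0455. The share with the higher Neurog2 fold change, 35.9%, was 46.9% with no limit on the tag order. Another Tbr2 peak lay within 5 kb at 24.0% and within 20 kb at 50.9%, and within 10 kb at 30.6% when the weakest Tbr2 peaks, with p above the largest Neurog2 p, were left out. Another Neurog2 peak lay within 5 kb at 10.2% and within 20 kb at 21.3%, and within 10 kb at 9.43% at an FDR of 1% or less. The alternatives for the last 3 results and for medians were added after seeing the data. Alternatives for motifs, gene starts and gene lists were not run, since mm9 sequence and annotation were not used here. No paired analysis was possible because each group has 1 library. Depth per library is unknown, so sites of few tags, such as the 9 at the weakest Neurog2 peak, are the least precise.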
